A study of Mus musculus with 4 samples.

Results

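The B cell receptor complex and signalling genes Cd79a, Cd79b, Cd22, Ms4a1, Blnk, Btk, Syk, Lyn and Bank1 were read in liver B cells sampled by fine-needle aspiration (FNA). These 9 genes, chosen by name, were 9 of the 33696 genes in the count tables, and each symbol matched 1 row. They were read in each library in 2 sets of B cells. Fcer2a B cells were cells with at least 1 unique molecular identifier (UMI, the tag of 1 captured transcript) of Cd79b and at least 1 of Fcer2a, which encodes the low-affinity IgE receptor CD23. Zbtb32/Sox5 B cells had at least 1 UMI of Cd79b and at least 1 of Zbtb32 or Sox5, a pair of transcription factor genes. Over 4 libraries the sets held 6328 and 8634 of 25359 kept cells, and 1454 cells were in both.

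All mice were male C57BL/6J, and from 7 weeks of age ate the FPC diet, rich in fructose, palmitate, cholesterol and trans-fat, so that no group was on normal chow. P-LC24 and P-HC24 were sampled at week 24 of the diet with 0.05% and 1.25% cholesterol. I-LC32 and I-HC32 were sampled at week 32, after 8 further weeks at 0.05% cholesterol, and had received 0.05% and 1.25% until week 24. The study asked what cholesterol in the diet, and then its reduction, did to the liver's immune cells. P-HC24 over P-LC24 is called Prog and I-HC32 over I-LC32 is called Int, for the progression and intervention phases. The same 3 mice of a diet arm were sampled at both weeks. Each library pooled 12 biopsies, 4 from each of 3 mice, and there was 1 library per condition. No difference between conditions could therefore be tested, and diet, mice and the handling of a library cannot be told apart.

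The B cell receptor is a membrane immunoglobulin held in a complex with the CD79A and CD79B chains, whose cytoplasmic tails carry the signal. After antigen binding, the Src family kinase LYN phosphorylates these tails, the kinase SYK docks on them, and SYK phosphorylates the scaffold BLNK, which brings BTK to its substrate phospholipase C gamma. CD22 and parts of the LYN pathway restrain the signal, CD20 (the product of Ms4a1) is a membrane protein of mature B cells, and BANK1 is a scaffold that binds LYN.

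Values for the 4 libraries are given in a fixed order, the week 24 pair (P-LC24, then P-HC24) before the week 32 pair (I-LC32, then I-HC32). Kept cells numbered 4930, 6532, 6978 and 6919, with 38509673 to 77017579 UMIs per library. Between 17 and 41 cell barcodes were shared by any 2 libraries. Fcer2a B cells numbered 1773, 1497, 1810 and 1248, with a median of 5297 to 6246 UMIs per cell. Zbtb32/Sox5 B cells numbered 868, 2120, 2422 and 3224 and were deeper, with medians of 10735 to 11477 UMIs. A marker was counted as present where 25% or more of a set's cells held a UMI of it. All 6 B cell markers were present in both sets in every library, and Cd79a and Ms4a1 are among them. Fcer2a B cells had all 5 markers of follicular naive B cells, one of which, Fcer2a, is present by rule, and 1 or 2 of 8 B-1 cell markers. Of the 8 B-1 cell markers, 7 were present in Zbtb32/Sox5 B cells, Zbtb32 and Sox5 of the rule among them, while Cd5 was not, with a UMI in 3.69% to 10.7% of the cells. These cells also had 3 of the 5 follicular markers in every library. The subset markers moved with the libraries too. Summed follicular markers had 1944, 1322, 1412 and 1088 CPM in Fcer2a B cells, where B-1 cell markers summed to 804, 979, 1366 and 1620 CPM. The sums in Zbtb32/Sox5 B cells were 526, 340, 396 and 367 CPM for follicular and 2842, 2302, 3381 and 2884 CPM for B-1 cell markers. The part of this difference in subset markers in the ratios below was not tested. Markers of other lineages moved with the libraries. The 6 myeloid markers summed to 243, 1077, 212 and 1016 CPM (the UMIs of a gene over all UMIs of the set, scaled to 1000000) in Fcer2a B cells, and Lyz2 had a UMI in 7.61%, 46.4%, 10.9% and 69.8% of these cells. The myeloid sums in Zbtb32/Sox5 B cells were 209, 1346, 422 and 628 CPM. Those of 3 erythroid markers ranged from 2212 CPM in I-HC32 to 14839 CPM in P-LC24, both in Fcer2a B cells. The part of these transcripts in the results below was not tested beyond the values given without cells that hold a UMI of other lineages, for which Lyz2 was not used. The 6 T cell markers summed to at most 33.7 CPM and the 5 hepatocyte markers to at most 11.5 CPM in either set. Median mitochondrial shares were 3.85%, 5.0%, 4.91% and 4.00% in Fcer2a B cells and 4.83%, 5.93%, 5.64% and 4.65% in Zbtb32/Sox5 B cells.

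The 9 genes differ widely in length, which is given here by the span of the gene from its first to its last base in GENCODE on GRCm39. Cd79b (chromosome 11, 106202167 to 106205588) spanned 3.42 kb and Cd79a (chromosome 7, 24596740 to 24601622) 4.88 kb. Cd22 (chromosome 7, 30564827 to 30579767) spanned 14.9 kb and Ms4a1 (chromosome 19, 11227039 to 11243605) 16.6 kb. Btk (chromosome X, 133443084 to 133484319) spanned 41.2 kb, Syk (chromosome 13, 52736696 to 52802828) 66.1 kb and Blnk (chromosome 19, 40916595 to 40982978) 66.4 kb. Lyn (chromosome 4, 3678061 to 3813122) spanned 135 kb and Bank1 (chromosome 3, 135759124 to 136031827) 273 kb. Exons covered 31.2% to 41.8% of the 4 shortest genes but 2.75% to 15.1% of the 5 longest.

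All comparisons below use summed UMIs of the cells of a set, scaled to CPM. The intervals in parentheses are exact 95% intervals from Poisson counts, which cover counting error only and not the spread between mice. A gene was compared where at least 10% of the cells of either side had a UMI of it and both sides together held at least 100 UMIs. A ratio of at least 1.2-fold, or 0.26 on the log2 scale, was counted as a description of the libraries.

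**Figure D1:**
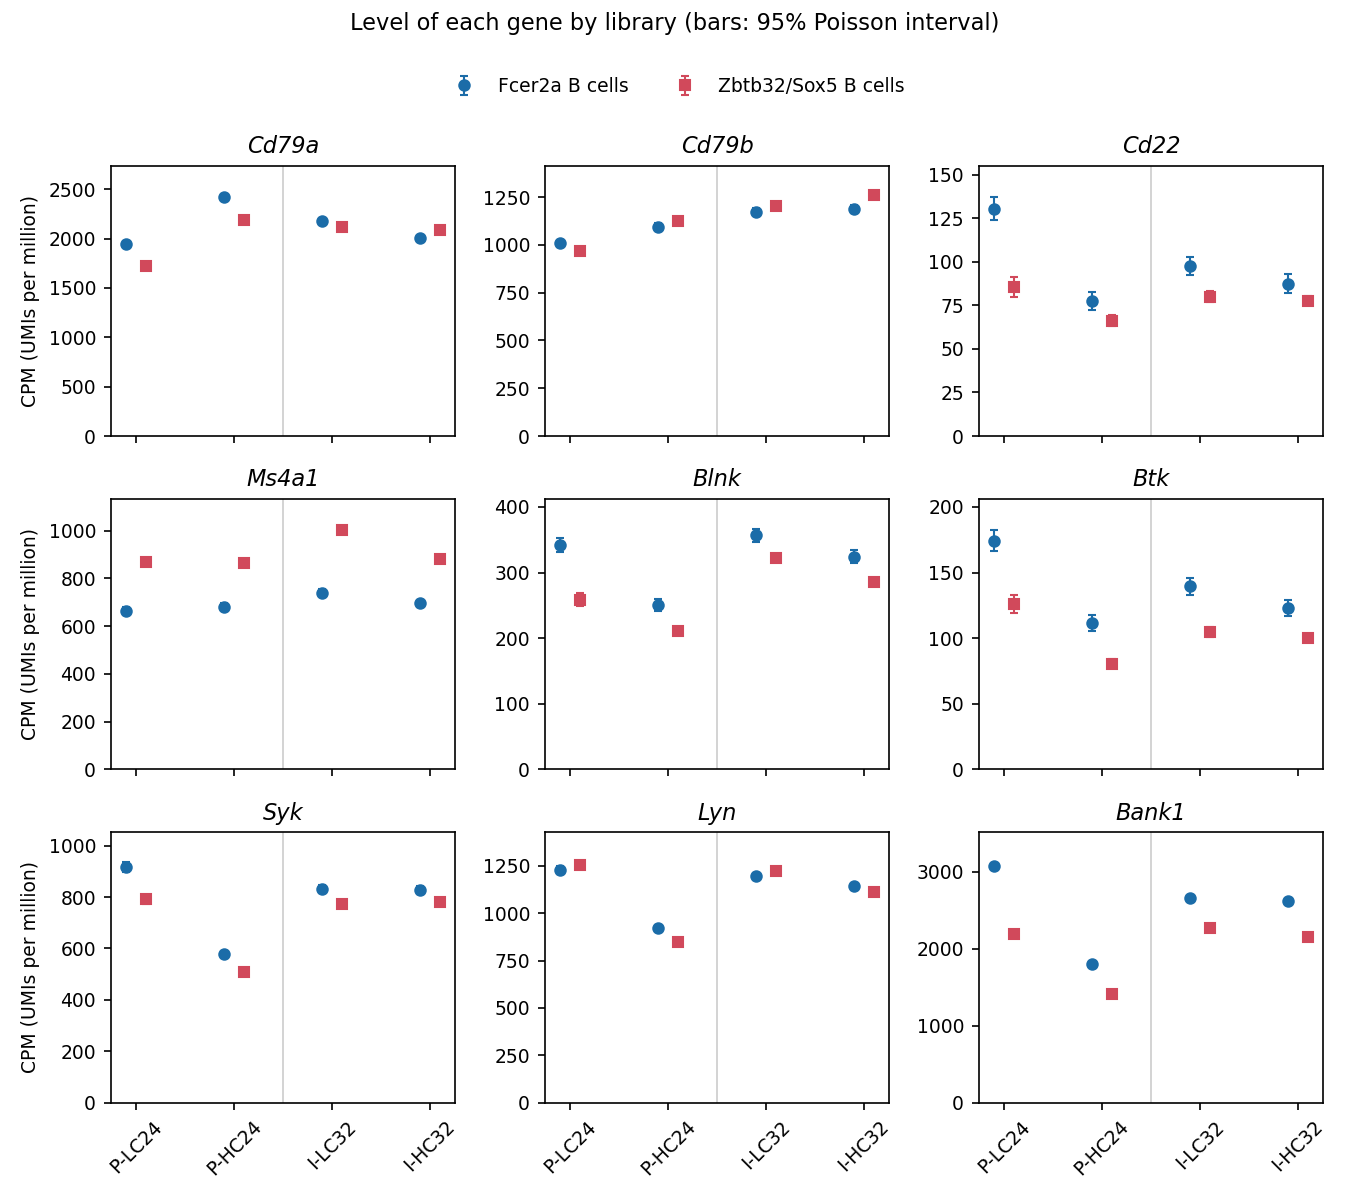
Level of each gene (CPM of summed UMIs, linear axis from 0) in the 4 libraries, for Fcer2a B cells (circles) and Zbtb32/Sox5 B cells (squares), with 95% Poisson intervals. P-HC24 holds the highest Cd79a and the lowest Cd22, Blnk, Btk, Syk, Lyn and Bank1 value of the 4 libraries in both sets.

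In Prog, Cd79a was higher in P-HC24 than in P-LC24 in both sets, Cd79b and Ms4a1 differed by less than 1.2-fold, and Cd22, Blnk, Btk, Syk, Lyn and Bank1 were lower in P-HC24 in both sets. Of the 9 genes, 6 were lower by at least 1.2-fold in Fcer2a B cells, against 40.8% of the 6199 compared genes, and 1 was higher, against 17.1%. Zbtb32/Sox5 B cells likewise had 6 of 9 lower, against 43.7% of 7713 genes, and 1 was higher, against 13.4%. The median log2 ratio of the 9 genes was -0.45 in Fcer2a B cells and -0.37 in Zbtb32/Sox5 B cells, and over all compared genes it was -0.17 and -0.20. In Int, none of the 9 genes passed 1.2-fold in either set.

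Of the receptor's own chains, Cd79a encodes the alpha signalling chain. Its level in Fcer2a B cells was 1946, 2424, 2182 and 2005 CPM in the 4 libraries. The levels in Zbtb32/Sox5 B cells were 1724, 2191, 2115 and 2086 CPM. P-HC24 was thus the highest library and P-LC24 the lowest in both sets. The Prog log2 ratio was 0.32 (0.29 to 0.34) in Fcer2a B cells and 0.35 (0.32 to 0.37) in Zbtb32/Sox5 B cells. Among cells with at most 5% mitochondrial UMIs it was 0.25 and 0.24, under 1.2-fold in both sets. That limit kept unequal shares of the libraries, 1552 of 1773 Fcer2a B cells in P-LC24 and 751 of 1497 in P-HC24. Of Zbtb32/Sox5 B cells it kept 486 of 868 in P-LC24 and 418 of 2120 in P-HC24. In Int the ratio was -0.12 (-0.15 to -0.10) and -0.02 (-0.03 to -0.01). Almost every cell held a UMI of the gene, 99.7% to 99.8% of Fcer2a B cells and 98.8% to 99.6% of Zbtb32/Sox5 B cells.

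The beta chain gene Cd79b was also the gene that gated both sets, so its detection in all cells follows from the rule and its levels are a description only. They were 1009, 1093, 1174 and 1187 CPM in Fcer2a B cells and 968, 1123, 1202 and 1259.8 CPM in Zbtb32/Sox5 B cells. P-LC24 was the lowest library in both sets. Prog ratios were 0.12 (0.08 to 0.15) and 0.21 (0.18 to 0.25), and Int ratios 0.02 (-0.02 to 0.05) and 0.07 (0.05 to 0.09).

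Ms4a1, the gene of CD20, differed by less than 1.2-fold in Prog and in Int. Its levels were 663, 682, 739 and 696 CPM in Fcer2a B cells and 868, 863, 1000.4 and 881 CPM in Zbtb32/Sox5 B cells. The P-LC24 and P-HC24 values lay within 0.04 (-0.01 to 0.09) and -0.01 (-0.04 to 0.03) on the log2 scale, and both intervals include 0. Int ratios were -0.09 (-0.13 to -0.04) and -0.18 (-0.21 to -0.16).

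Cd22 encodes a sialic acid binding co-receptor that recruits the phosphatase encoded by Ptpn6. It had 130.4, 77.4, 97.4 and 87.4 CPM in Fcer2a B cells. The corresponding values in Zbtb32/Sox5 B cells were 85.3, 66.2, 79.8 and 77.6 CPM. P-LC24 was highest and P-HC24 lowest in both sets, but the interval of P-HC24 reached that of I-HC32 in Fcer2a B cells. The Prog ratio was -0.75 (-0.88 to -0.63) in Fcer2a B cells and -0.37 (-0.48 to -0.25) in Zbtb32/Sox5 B cells, with intervals that did not overlap. With cells above 5% mitochondrial UMIs left out, the ratio in Zbtb32/Sox5 B cells was -0.78. After each cell was thinned to 3000 UMIs, 30.5% of Fcer2a B cells held a UMI in P-LC24 and 20.4% in P-HC24, against 50.03% and 36.9% unthinned. Int ratios were -0.16 (-0.27 to -0.04) and -0.04 (-0.11 to 0.04).

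Lyn and Syk encode the kinases that act first on the receptor tails. For Lyn, Fcer2a B cells held 1227, 922, 1194 and 1142 CPM, and Zbtb32/Sox5 B cells held 1254, 847, 1221 and 1113 CPM. Only the P-HC24 library lay below 1000 CPM in either set. Its Prog ratio was -0.41 (-0.45 to -0.37) in Fcer2a B cells and -0.57 (-0.60 to -0.53) in Zbtb32/Sox5 B cells. Int ratios were -0.06 (-0.10 to -0.03) and -0.13 (-0.15 to -0.11). For Syk, the levels were 917, 578, 832 and 828 CPM in Fcer2a B cells and 791, 510.3, 774 and 779 CPM in Zbtb32/Sox5 B cells. P-HC24 again stood below the other 3 libraries, which lay within 774 to 791 CPM in Zbtb32/Sox5 B cells. The Prog ratio of Syk was -0.67 (-0.71 to -0.62) and -0.63 (-0.67 to -0.59), and the Int ratio was -0.01 (-0.05 to 0.03) and 0.01 (-0.01 to 0.03), so that both Int intervals include 0.

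Blnk and Btk encode the scaffold and the kinase of the next step. Blnk had 342, 251, 357 and 324 CPM in Fcer2a B cells and 259, 211, 322 and 286 CPM in Zbtb32/Sox5 B cells. P-HC24 was the lowest library in both sets. The Prog ratio was -0.45 (-0.52 to -0.38) in Fcer2a B cells and -0.29 (-0.36 to -0.22) in Zbtb32/Sox5 B cells, the latter -0.55 among cells with at most 5% mitochondrial UMIs. Btk, the gene mutated in X-linked agammaglobulinaemia, had 174, 112, 139 and 123 CPM in Fcer2a B cells and 126, 80.6, 104 and 99.8 CPM in Zbtb32/Sox5 B cells. Both sets thus ordered the libraries alike for Btk, from P-HC24, the lowest, over I-HC32 and I-LC32 to P-LC24, although the intervals of P-HC24 and I-HC32 met in Fcer2a B cells. Prog ratios of Btk were -0.64 (-0.75 to -0.54) and -0.65 (-0.75 to -0.55). In Int, Blnk had ratios of -0.14 (-0.20 to -0.08) and -0.17 (-0.21 to -0.14), and Btk of -0.18 (-0.28 to -0.08) and -0.07 (-0.13 to 0.00).

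Bank1, the longest of the 9 genes, had the lowest Prog ratio in Fcer2a B cells. Its levels there were 3073, 1801, 2657 and 2617 CPM. Levels in Zbtb32/Sox5 B cells were 2184, 1411, 2267 and 2152 CPM. The 3 libraries other than P-HC24 were close to each other in Zbtb32/Sox5 B cells, while P-LC24 stood above all others in Fcer2a B cells. Prog ratios were -0.77 (-0.80 to -0.75) and -0.63 (-0.65 to -0.61), and Int ratios -0.02 (-0.04 to -0.00) and -0.07 (-0.09 to -0.06). The transcript was nonetheless found in nearly every cell, with a UMI in 98.7% to 99.5% of the cells of either set in each library.

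P-HC24 also had the lowest share of cells with a UMI of Cd22, Blnk, Btk, Syk, Lyn and Bank1 in both sets. Btk was detected in 57.5%, 47.4%, 55.0% and 57.8% of Fcer2a B cells, and Blnk in 76.0%, 69.7%, 79.4% and 79.7%. After thinning of each cell to 3000 UMIs, Btk was found in 38.0%, 28.6%, 33.7% and 31.1% of Fcer2a B cells and in 34.1%, 22.3%, 26.9% and 25.1% of Zbtb32/Sox5 B cells. Shallower cells were left out, 50, 26, 54 and 34 of the former and 8, 8, 20 and 13 of the latter set. Thinned shares for Syk were 87.0%, 75.1%, 84.2% and 84.4%, and 85.0%, 72.5%, 84.2% and 83.4%. P-HC24 was thus lowest for both kinases in both sets. In a gate of T cells, which should hold little of either transcript, Btk had a UMI in at most 0.867% of cells and Syk in at most 4.796%.

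**Figure D2:**
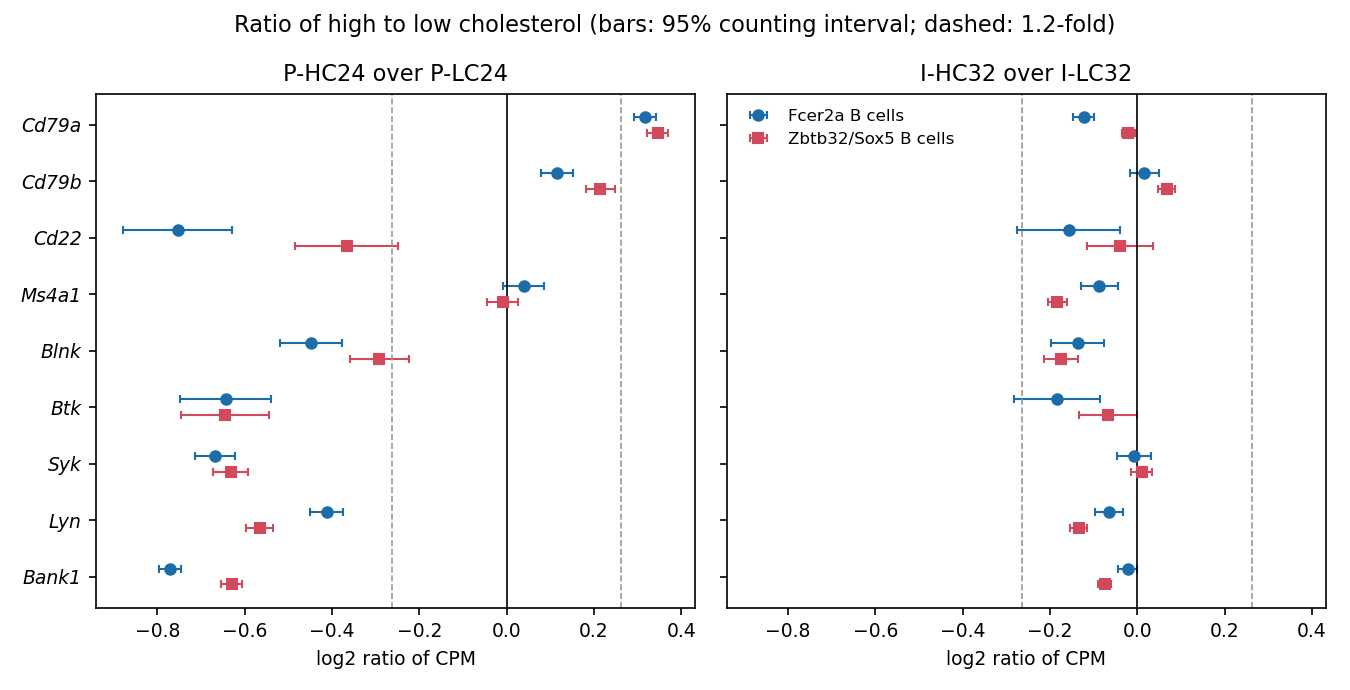
Log2 ratio of CPM of each gene in Prog (left, P-HC24 over P-LC24) and Int (right, I-HC32 over I-LC32), for Fcer2a B cells (circles) and Zbtb32/Sox5 B cells (squares), with 95% counting intervals and dashed lines at 1.2-fold. In Prog the points run from -0.77 for Bank1 to 0.35 for Cd79a, and in Int they all lie between the dashed lines.

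In Int, the share of the 9 genes past 1.2-fold, 0 in either set, stood beside 6.91% lower and 14.8% higher among 7236 compared genes in Fcer2a B cells, and 7.7% lower and 14.4% higher among 8112 in Zbtb32/Sox5 B cells. Below 0 were 8 of 9 ratios in Fcer2a B cells and 7 of 9 in Zbtb32/Sox5 B cells. The median ratio of the 9 genes was -0.09 and -0.07, and that of all compared genes 0.05 in each set.

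The same libraries were also set against each other by week. These comparisons share their libraries with Prog and Int, and age, the second sampling and the diet change cannot be told apart in them. In the arm that changed from high to low cholesterol, I-HC32 over P-HC24, the log2 ratio was 0.54 (0.51 to 0.56) for Bank1 in Fcer2a B cells and 0.61 (0.59 to 0.63) in Zbtb32/Sox5 B cells. For Syk it was 0.52 (0.47 to 0.57) and 0.61 (0.58 to 0.64), for Lyn 0.31 (0.27 to 0.35) and 0.39 (0.37 to 0.42), and for Blnk 0.37 (0.30 to 0.44) and 0.43 (0.39 to 0.48). Btk had 0.14 (0.03 to 0.25) and 0.31 (0.23 to 0.38). Cd79a had a negative ratio, -0.27 (-0.30 to -0.25) and -0.07 (-0.09 to -0.06). By 1.2-fold or more, 4 of 9 genes were higher in Fcer2a B cells, against 39.0% of all compared genes, and 1 was lower, against 5.87%. Zbtb32/Sox5 B cells had 5 higher, against 48.1%, and 0 lower, against 4.59%. The ratios of all compared genes in this arm were also higher at greater gene span, with values given below.

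The arm kept on low cholesterol, I-LC32 over P-LC24, differed in another way. Cd22 in Fcer2a B cells had a ratio of -0.42 (-0.53 to -0.31) and Btk of -0.32 (-0.41 to -0.23), and these 2 genes were the only ones past 1.2-fold, against 17.9% of all compared genes lower and 20.4% higher. Higher in Zbtb32/Sox5 B cells were 3 genes, Cd79a at 0.29 (0.27 to 0.32), Cd79b at 0.31 (0.28 to 0.34) and Blnk at 0.32 (0.25 to 0.38), against 20.7% of genes. Btk was the 1 gene lower there, at -0.27 (-0.37 to -0.18), against 16.4%.

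The Prog ratios of all compared genes were lower at greater gene span. Compared genes were put in 5 classes of equal size by span. From the shortest to the longest class, the median Prog ratio in Fcer2a B cells was 0.20, 0.01, -0.16, -0.32 and -0.43, and in Zbtb32/Sox5 B cells 0.16, -0.02, -0.19, -0.33 and -0.45. Across genes, which are not independent replicates, Spearman's rho of ratio and span was -0.55 over 6194 genes and -0.57 over 7702 genes, and -0.27 and -0.35 with a filter of 20 UMIs alone. The 9 genes did not all keep that order, since Lyn, at 135 kb, had a higher ratio than the shorter Btk and Syk in both sets. The same description gave -0.55 in a T cell gate (cells with Cd3e and none of the B cell and myeloid gate genes, 6819 genes) and -0.38 in a myeloid gate (cells with Csf1r and none of the B and T cell gate genes, 8448 genes). In Int it was -0.07 and -0.04 in the 2 sets of B cells. By week, it was 0.42 and 0.49 for I-HC32 over P-HC24, and -0.22 and -0.19 for I-LC32 over P-LC24. With exon length in place of span, rho in Prog was -0.45 in Fcer2a and -0.46 in Zbtb32/Sox5 B cells. It was -0.43 in the T cell gate and -0.33 in the myeloid gate, so the relation was not particular to span. Longer genes thus had lower Prog ratios in B cells, T cells and myeloid cells alike, and what this relation rests on was not tested.

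Set beside their own class, the 9 genes parted into 3 kinds. Cd79b, Ms4a1, Blnk and Lyn lay within 0.13 of the class median in both sets. For Lyn the difference was 0.02 in Fcer2a and -0.12 in Zbtb32/Sox5 B cells, and for Blnk -0.13 and 0.04. Cd22, Btk, Syk and Bank1 lay below it in both sets. Cd22, in the second shortest class, was 0.76 below the class median in Fcer2a B cells, where 1.61% of its class had a lower ratio, and 0.35 below in Zbtb32/Sox5 B cells, where 14.2% had. Btk was below by 0.33 and 0.32, Syk by 0.35 and 0.30, and Bank1 by 0.34 and 0.18. Cd79a lay above its class by 0.11 and 0.18, and 64.3% and 76.1% of its class had a lower ratio. The ratios of I-HC32 over P-HC24 were set beside the class medians in the same way. Relative to these, Bank1 was at 0.21 and 0.19, Syk at 0.25 and 0.28, and Blnk at 0.11 and 0.11. Lyn was at -0.03 and -0.03, Btk at -0.13 and -0.02, and Cd79a at -0.28 and -0.12.

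**Figure D3:**
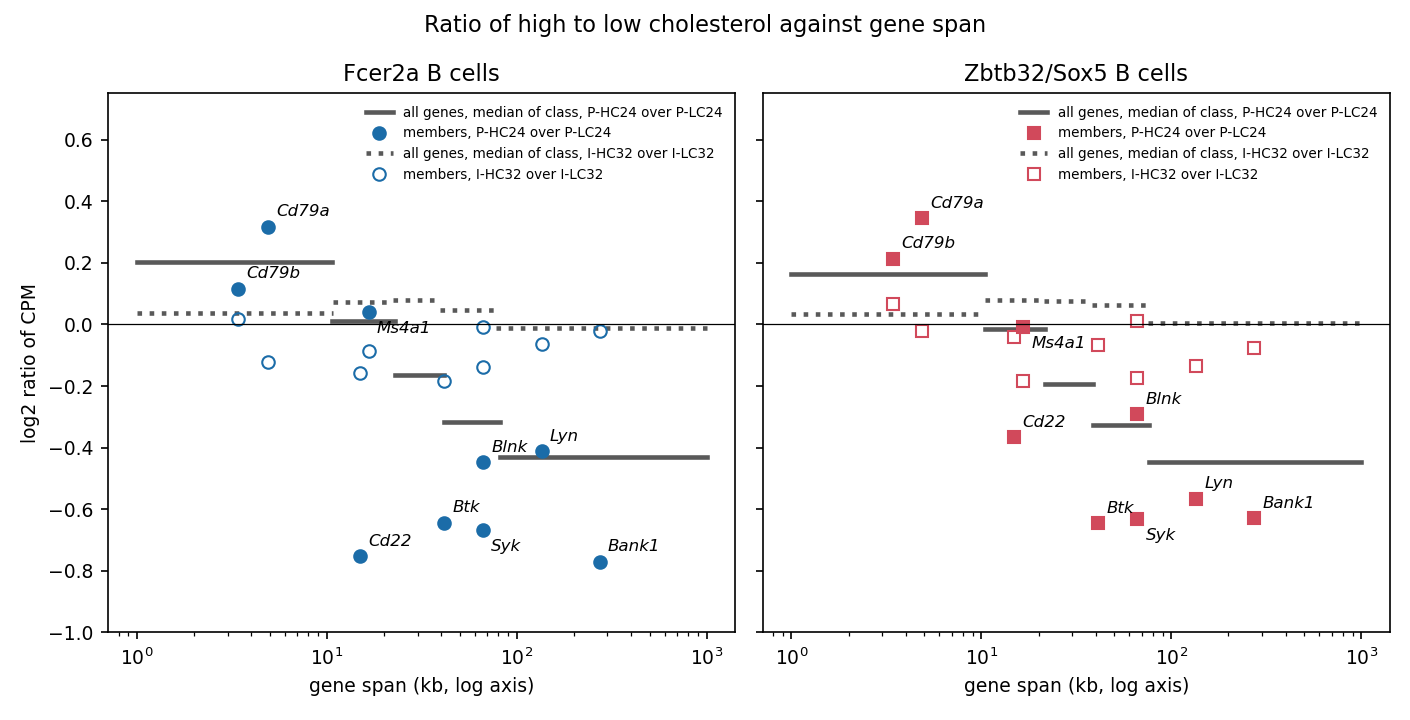
Log2 ratio of CPM against gene span (kb, log axis) for the 9 genes in Prog (filled) and Int (open), with the median of all compared genes in 5 span classes as horizontal bars (solid for Prog, dotted for Int). The outermost bars are drawn from 1 kb and to 1000 kb. In Prog the bars step down from 0.20 to -0.43 in Fcer2a B cells and Cd22 lies farthest below its bar, while in Int the bars stay near 0.

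The stretches before the RefSeq start sites are shown for the gene that was higher in Prog and for the 2 lower genes whose stretch overlapped no annotated exon. For Cd79a, only the first 68 bases, up to the first annotated exon, are shown. They were read from the RefSeq promoter table (built on GRCm38.p6), which held 6 of the 9 genes, namely Bank1, Blnk, Btk, Cd22, Cd79a and Syk, and did not match Cd79b, Lyn and Ms4a1. Each stretch matched GRCm39 at 1 place, given with its strand. Capitals mark the letters TATAAA on either strand.
Bank1, chr3:136031828-136032077, minus strand: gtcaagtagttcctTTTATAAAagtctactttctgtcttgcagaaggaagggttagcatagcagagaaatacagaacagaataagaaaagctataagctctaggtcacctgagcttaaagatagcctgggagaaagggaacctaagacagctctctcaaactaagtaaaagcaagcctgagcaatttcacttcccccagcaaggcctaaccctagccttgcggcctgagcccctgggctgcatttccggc
Btk, chrX:133483890-133484139, minus strand: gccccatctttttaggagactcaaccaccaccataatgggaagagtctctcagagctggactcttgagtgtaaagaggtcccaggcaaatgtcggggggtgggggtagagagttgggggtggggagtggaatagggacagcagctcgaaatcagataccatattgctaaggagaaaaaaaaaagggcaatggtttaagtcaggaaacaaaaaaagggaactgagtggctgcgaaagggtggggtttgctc
Cd79a, chr7:24596672-24596739, plus strand: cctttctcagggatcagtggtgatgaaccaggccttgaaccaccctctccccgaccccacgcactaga
The 250 bases before the start held TATAAA in Bank1 and in 12.4% of 32851 promoters. In Bank1 these were 2 overlapping matches at bases 15 and 17, counted from the end farthest from the start. The octamer ATGCAAAT, a motif bound by Oct proteins, was found on either strand before Blnk, among these genes, and in 1.60% of all promoters. The palindromic EBF core motif, searched on both strands, was found before Cd22 and in 0.779% of all promoters. Stretches of 250 bases before Cd79a, Btk and both Syk starts held none of these letters. Start sites differ between annotations. Of the 250 bases before the RefSeq start, 182 for Cd79a, 102 for Cd22 and 250 for Blnk are exonic in GENCODE. For the Syk starts, 250 and 29 bases are exonic. The Btk stretch lies inside the GENCODE span of Btk given above.

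The 2 sets of B cells were next compared within each library, where diet, mice and handling are shared. Ms4a1 was higher in Zbtb32/Sox5 than in Fcer2a B cells in all 4 libraries, with log2 ratios of 0.39, 0.34, 0.44 and 0.34. Btk was lower in all 4, with -0.47, -0.47, -0.42 and -0.30. These were the 2 genes past 1.2-fold in every library, 1 in each direction, while 14.8% of 7138 genes compared in all libraries were lower in all 4 and 7.1% were higher. Neither gene passed in all 4 with the 5% mitochondrial limit. Bank1 had ratios of -0.49, -0.35, -0.23 and -0.28, and Cd22 of -0.61, -0.22, -0.29 and -0.17. Blnk had ratios of -0.40, -0.24, -0.15 and -0.18, and Syk of -0.21, -0.18, -0.11 and -0.09. Over all compared genes, rho of this ratio and gene span was -0.19, -0.24, -0.21 and -0.24. Relative to the median of its span class, Btk was at -0.28, -0.26, -0.26 and -0.17. On that scale Blnk was at -0.22, -0.04, 0.01 and -0.05, and Syk at -0.03, 0.03, 0.05 and 0.05. The part of gene span in these ratios was not tested.

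Cd79a lay on either side of 0, from -0.17 (-0.20 to -0.15) in P-LC24 to 0.06 (0.04 to 0.08) in I-HC32. Cd79b lay between -0.06 and 0.09, and Lyn between -0.12 and 0.03. Relative to the median of its span class, Lyn was at 0.27, 0.14, 0.24 and 0.14. Counted per cell without scaling to depth, however, all 9 genes were higher in Zbtb32/Sox5 B cells in each library, and these cells also held more UMIs in all. Cd22 held 0.808 UMIs per cell in Fcer2a B cells and 0.998 in Zbtb32/Sox5 B cells of P-LC24, Btk 1.08 and 1.47, and Bank1 19.0 and 25.5. Blnk held 2.12 and 3.03 UMIs per cell there and Syk 5.68 and 9.25. The direction for these 5 genes, lower by CPM in all 4 libraries, thus depends on the scaling. Sox5 itself had a UMI in 10.5%, 20.04%, 26.2% and 35.0% of Fcer2a B cells, so the overlap of the sets differed between libraries. With the cells in both sets left out, Ms4a1 had a mean ratio of 0.60 over the 4 libraries, against 0.38 with them.

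**Figure D4:**
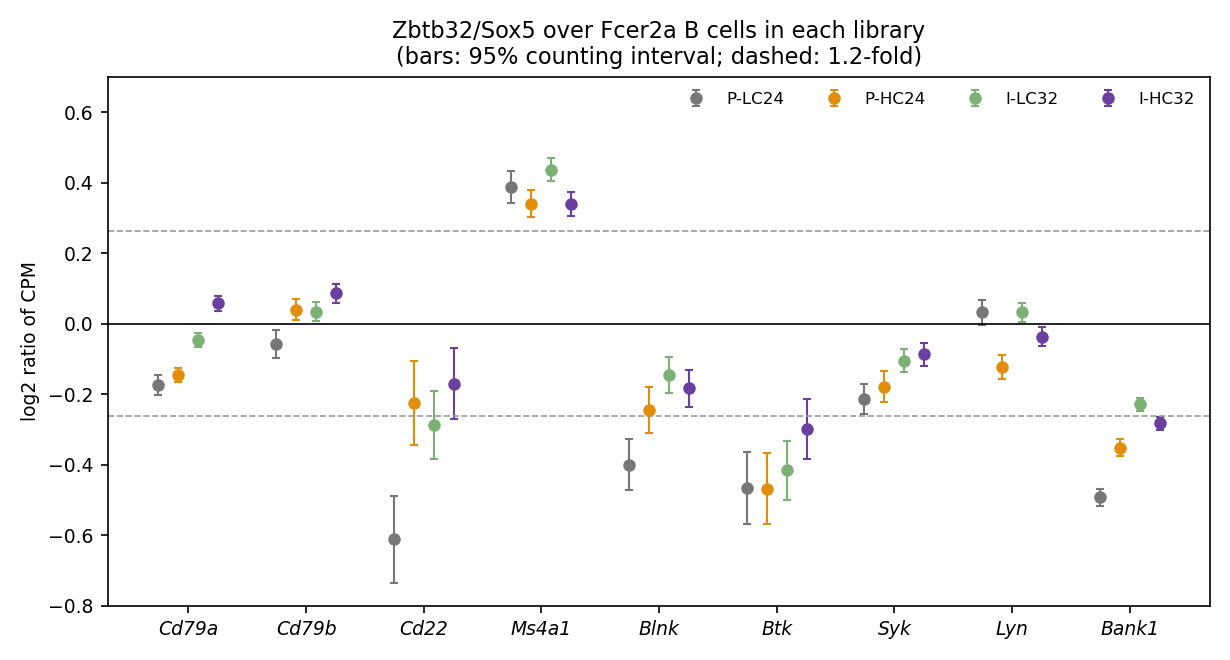
Log2 ratio of CPM, Zbtb32/Sox5 over Fcer2a B cells, of each gene within each of the 4 libraries, with 95% counting intervals and dashed lines at 1.2-fold. Ms4a1 lies above the upper line and Btk below the lower line in all 4 libraries.

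Cells of other types were read as a measure of free RNA. In the T cell gate, of 834 to 1315 cells per library, all 9 genes had at most 31.4 CPM. Cd79a had 7.03 to 31.4 CPM there with a UMI in 4.77% to 11.0% of cells, and Bank1 had 5.74 to 17.2 CPM with a UMI in 3.58% to 7.07%. The T cell gate held a median of 6414 to 8361 UMIs per cell, above that of Fcer2a B cells in each library. Cd22 had a UMI in 0.659% to 2.06% of T cell gate cells and Ms4a1 in 2.28% to 5.16%. Cd79a of the T cell gate was highest in I-HC32, with 31.4 CPM against 7.54 in I-LC32.

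Lyn, Syk and Btk, by contrast, were also found in myeloid cells, as these kinases are known to act there. In the myeloid gate, of 259 to 717 cells, Lyn had 1515, 955.4, 1319 and 980.2 CPM, with a UMI in 97.0% to 99.4% of cells. Syk had 403, 166, 370 and 144 CPM and Btk 80.3, 43.7, 53.6 and 48.8 CPM. P-HC24 and I-HC32 were thus each below both P-LC24 and I-LC32 for Lyn, Syk and Btk in myeloid cells. Of these libraries, only P-HC24 was sampled on 1.25% cholesterol. The Int interval of Btk, -0.14 (-0.35 to 0.08), includes 0. The median ratio of all genes in that gate was -0.31 in Prog and -0.23 in Int, so that Btk in Int lay above it. Myeloid markers summed to 18284, 36396, 22046 and 43747 CPM in the same cells, and their part in these values was not tested. Bank1 had 61.0 to 92.2 CPM there and a UMI in 24.7% to 59.0% of cells. The Prog ratio of Syk there was -1.28 (-1.38 to -1.18) and the Int ratio -1.36 (-1.46 to -1.27), whereas in B cells the Int ratio was close to 0. This difference was not tested. NK cells (Ncr1 without Cd3e and the B and myeloid gate genes, 52 to 225 cells) held 353 to 454 CPM of Lyn and 84.1 to 168 CPM of Syk. With B cells that held a UMI of a T cell, NK cell or myeloid marker left out, the Prog ratios in B cells were -0.44 and -0.56 for Lyn and -0.64 and -0.64 for Syk.

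The rest of the pathway was read from a list of 46 other genes of B cell receptor signalling, 31 activating or downstream and 15 inhibitory. In Prog, 22 of 45 compared genes were lower and 4 higher in Fcer2a B cells, and 25 of 45 lower and 1 higher in Zbtb32/Sox5 B cells. Over all compared genes 40.8% and 43.7% were lower and 17.1% and 13.4% higher. The median ratio of the list was -0.26 and -0.29, beside -0.17 and -0.20 over all genes. Split by role, 16 of 31 activating and 6 of 14 inhibitory genes were lower in Fcer2a B cells, and 19 of 31 and 6 of 14 in Zbtb32/Sox5 B cells. The lowest ratio in both sets was that of Cr2, which encodes the complement receptor CD21 of the co-receptor, with 135 CPM in P-LC24 and 58.3 in P-HC24 in Fcer2a B cells, a ratio of -1.21 (-1.35 to -1.07). Cr2 in Zbtb32/Sox5 B cells had 26.7 and 11.1 CPM, a ratio of -1.27 (-1.51 to -1.03). The highest was Akt1, a kinase of the phosphoinositide pathway, in Fcer2a B cells, at 0.43 (0.15 to 0.71) from 17.4 to 23.5 CPM. For Zbtb32/Sox5 B cells it was Cd81, another gene of the co-receptor, at 0.38 (0.29 to 0.47) from 124 to 161 CPM.

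In Int, 7 of 45 genes of the list were lower and 2 higher in Fcer2a B cells, and 7 of 46 lower and 2 higher in Zbtb32/Sox5 B cells. All compared genes had 6.91% and 7.7% lower and 14.8% and 14.4% higher. The list's median ratio was -0.07 and -0.03, beside 0.05 over all genes. Ptpn22, a phosphatase that restrains Src family kinases, was highest in Fcer2a B cells. It had 109.8 CPM in I-LC32 and 203 CPM in I-HC32, a ratio of 0.89 (0.80 to 0.98). Cd72, an inhibitory co-receptor, was lowest, with 89.3 and 63.4 CPM, a ratio of -0.49 (-0.63 to -0.36). The highest in Zbtb32/Sox5 B cells was Malt1, a protease of the signal to NF-kB, at 0.38 (0.34 to 0.42) from 289.9 to 377 CPM. Cd5, an inhibitory receptor of B-1 cells and T cells, was lowest at -0.59 (-0.82 to -0.35), with 10.3 and 6.83 CPM. It passed the filter only through the cells of I-LC32, the library where it was higher. Its place as lowest, and among the 7 lower genes, therefore rests in part on the filter. Between the sets, among the 45 genes of the list that passed the filter in all 4 libraries, Ptpn22 had the highest mean log2 ratio of Zbtb32/Sox5 over Fcer2a B cells, 0.83, and Cr2 the lowest, -2.24. Cd5, also on the list of B-1 cell markers, passed the filter in 1 library, I-LC32. It passed there only through the Zbtb32/Sox5 B cells, where it was higher, so it was not ranked. Of those 45 genes, 14 were lower and 3 higher in all 4 libraries, against 14.8% and 7.1% of all genes.

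**Figure D5:**
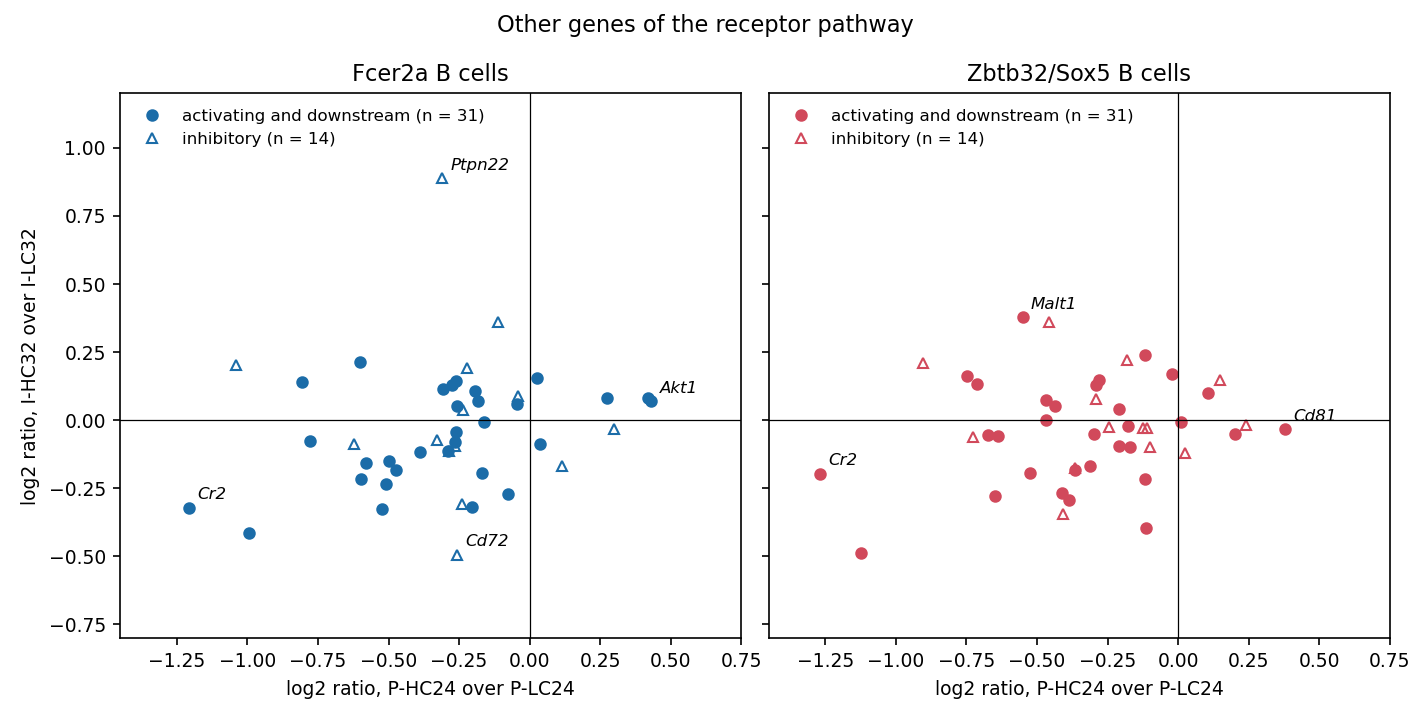
Log2 ratio of CPM in Int against that in Prog for the genes of the pathway list compared in both (31 activating or downstream as circles, 14 inhibitory as triangles), in Fcer2a B cells (left) and Zbtb32/Sox5 B cells (right). Most points lie left of 0, from -1.21 and -1.27 for Cr2, while few lie far from 0 in Int, where Ptpn22 in Fcer2a B cells, at 0.89, is the highest.

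Over the 8 values of 2 sets and 4 libraries, the level of each gene was compared with that of 6860 other genes. The 8 points share cells and libraries, and the correlations are a description. Each gene named as most like was picked as highest among the 6860 over only 8 points, so a high r follows in part from the choice. Bank1 was most like Exoc4 (Pearson's r = 0.996) and Scaf8 (0.993), Btk like Stk4 (0.995), and Syk like Cdk12 (0.993) and Atrx (0.991). Blnk was most like Ints9 (0.994) and Traf3 (0.992), Lyn like Arih1 (0.982) and Wbp1l (0.98), and Cd22 like Dennd5b (0.985) and N4bp2l2 (0.983). Cd79a was most like Myl12b (0.981) and Selenoh (0.967), Cd79b like Sgta (0.978) and Wdr46 (0.974), and Ms4a1 like Cyb561a3 (0.992) and Hpf1 (0.978). Among the 9 genes themselves, Syk and Bank1 had r = 0.96 and Cd22 and Btk r = 0.96, while Cd79a and Bank1 had r = -0.42 and Cd79a and Cd79b r = 0.51.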

How the data were processed

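Libraries were made with the 10x Genomics Chromium 3′ kit. Counts, as deposited, were raw UMIs from Cell Ranger 9.0.1 on GRCm39, and the submitters' notes also name Seurat 5.3. The values were whole numbers, and no correction for ambient RNA was applied here. Libraries held 50941106 to 89257239 UMIs. Cells with at least 500 UMIs and 300 genes and at most 10% mitochondrial UMIs were kept, and the highest Scrublet scores (scanpy 1.11.5), 0.8% of cells per 1000, were removed as doublets. Gene spans came from GENCODE on GRCm39, where 33185 of 33696 gene identifiers matched, including all 9 genes. Summed UMIs were scaled to CPM, with exact Poisson intervals for levels, exact conditional binomial intervals for ratios and exact Clopper-Pearson intervals for shares (scipy 1.17.1 under Python 3.11.15, with pandas 2.3.3, numpy 2.4.6 and matplotlib 3.10.9). The interval step was run on simulated Poisson counts, which hold no spread between cells or mice, so that run cannot speak to such spread. The thinning step was checked on cells of P-LC24 for its total of UMIs. With 1 library per condition, conditions were compared without a test.

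The named genes were the 9 genes, the pathway list's highest and lowest ratio per comparison and, by Pearson correlation of log2 CPM, the 2 genes most like each (at least 100 UMIs in each of 8 values; immunoglobulin, mitochondrial, Gm and Rik genes left out). Genes and lists were chosen with earlier results of these data known. Alternatives concerned the mitochondrial limit, doublets, denominator, centring, gates, weight of cells, fold, filter and thinning, and 2 further ones, centring by span class and UMIs per cell, were chosen after seeing the data. An alternative gate and 1 of the genes most like Btk are not reported here.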

Additional observations from a re-analysis of the deposited data

Results flagged for a closer look

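The diet ratio of Cd79a had opposite signs at the 2 weeks in both sets of B cells, with counting intervals that exclude 0 each time. In Fcer2a B cells it was 0.32 in Prog and -0.12 in Int, and in Zbtb32/Sox5 B cells it was 0.35 in Prog and -0.020 in Int. The difference was not tested, since each value rests on 1 library per condition, and the Int values are under 1.2-fold. Among cells with at most 5% mitochondrial UMIs, the Int value in Zbtb32/Sox5 B cells was 0.11. That limit kept 709 of 2422 such cells in I-LC32 and 2067 of 3224 in I-HC32.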

How the results depend on the processing

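No paired analysis was possible because each condition had 1 library and no result comes from a test. Counts of genes past 1.2-fold in Prog were 6 lower and 1 higher in each set, 0 in Int, and 1 lower and 1 higher between sets in all 4 libraries. They were within 1.5 times of these under the 20% mitochondrial limit, without doublet removal, with immunoglobulin and mitochondrial genes out of the denominator, without cells holding markers of other lineages, and after thinning. With the 5% mitochondrial limit the counts of higher genes in Prog were 0 and 0, and both counts between sets were 0. Ratios relative to the median gene gave 2 and 2 higher genes in Prog and 0 lower between sets. Without the cells in both sets, 1 gene was lower in Int in Fcer2a B cells and 2 were lower between sets. A gate of 2 UMIs gave 3 lower between sets, and the mean of each cell's own CPM gave 1 lower in Int in Fcer2a B cells. At 1.5-fold, Prog held 0 higher in each set and 3 lower in Zbtb32/Sox5 B cells, and 0 and 0 differed between sets. A filter of 20 UMIs gave rho of ratio and span of -0.27 and -0.35.

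Of the 2 alternatives chosen after seeing the data, the first centred ratios by span class. Relative to the span class, Prog held 0 higher genes in each set and 3 lower in Zbtb32/Sox5 B cells, 0 were lower between sets, and Lyn in Fcer2a B cells (0.018) and Blnk in Zbtb32/Sox5 B cells (0.036) changed sign. As UMIs per cell, 3 and 2 genes were higher in Prog, 5 were higher in Int in Fcer2a B cells, and 0 were lower and 7 higher between sets, with Cd22 at 0.43, Btk at 0.34 and Bank1 at 0.41. The cause was not tested. With 1 library per condition, the intervals cover counting error and no spread between mice.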
